A study of Mus musculus with 18 samples.

Results

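The enzymes that take stored triacylglycerol apart, together with their protein inhibitors, were followed in cartilage cells that fill with fat and in true adipocytes. 9 genes were chosen by name, out of 46983 genes in the deposited table: Pnpla2, Lipe, Mgll, Pnpla3 and Ces1d, which encode lipid hydrolases, Abhd5, which encodes a lipase activator, G0s2 and Hilpda, which encode lipase inhibitors, and Aqp7, which encodes a glycerol channel. Each gene name matched 1 row. The rule itself sets no threshold on a measured value.

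The study sequenced RNA from lipochondrocytes, cells of the mouse ear cartilage that hold a large lipid vacuole, at postnatal days 8, 10, 13, 21 and 33 (P8 to P33), and from inguinal adipocytes taken at P33, with 3 libraries in each of the 6 groups. All 18 libraries came from mice labelled Wnt1-Cre2;TdTomato on the C57BL/6 strain, in which Cre, expressed in the neural crest lineage, switches on a red fluorescent protein. Cells of P8, P10 and P13 ears were freed with collagenase and sorted for high TdTomato fluorescence. P21 and P33 ears were digested the same way, but the cells that floated after centrifugation were collected without a sort, and inguinal adipocytes were collected as floating cells too. Any difference between P21 and P13 therefore holds both age and isolation, which cannot be told apart. Against adipocytes, the P8, P10 and P13 cells also differed in age and isolation, and the P21 cells in age. Those differences cannot be told apart from cell type. The TdTomato gate selects cells of the neural crest lineage and not lipochondrocytes as such. The labels do not say whether the libraries of a group came from separate animals, so p-values measure the spread between these libraries, which may be technical.

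Triacylglycerol in a lipid droplet is cut in steps. Adipose triglyceride lipase (ATGL, the product of Pnpla2) releases the first fatty acid, hormone-sensitive lipase (HSL, Lipe) acts mainly on the diacylglycerol left, and monoglyceride lipase (Mgll) frees the last fatty acid and glycerol. ATGL works slowly without its coactivator CGI-58 (Abhd5), and it is blocked by the small proteins G0S2 and HILPDA. In adipocytes, adrenergic signals raise cyclic AMP, and protein kinase A then drives the breakdown, while insulin holds it back.

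Values are FPKM, mapped fragments scaled to transcript length and to the size of the library. Comparisons between genes on this scale rest on the transcript lengths used, which are not known here. Each library had between 12461965 and 27640142 reads, of which 73.19% to 84.44% aligned. Mitochondrial transcripts took 3.7% to 6.0% of the summed FPKM in lipochondrocytes, against 23.3% to 25.5% in adipocytes. The summed FPKM of 10 cartilage markers ran between 22492 and 52622 in lipochondrocytes and between 4.72 and 6.94 in adipocytes, so the cartilage label held in all 15 lipochondrocyte libraries. The summed FPKM of 9 adipocyte markers was 0.75 to 2.73 in the P8, P10 and P13 libraries, 21.2 to 28.1 at P21 and 8.68 to 11.3 at P33, against 113394 to 119500 in adipocytes, with Lep and Adrb3 at 0 in all P21 and P33 libraries. The third P33 library stood apart: its 9 fibroblast and perichondrium markers summed to 16238 FPKM, against 8919 and 9390.5 FPKM in the other P33 libraries, and its 9 skeletal muscle markers to 203.8 FPKM, against 26.9 and 52.2 FPKM. Skeletal muscle markers summed to between 78.8 and 527 FPKM at P21, against 24.3 to 36.7 FPKM at P13, and 9 macrophage markers to between 18.9 and 33.2 FPKM at P21 and between 34.8 and 65.2 FPKM at P33, against 3.52 to 4.76 FPKM at P13. The part of such cells in the results was not tested. These are bulk samples, in which fewer cells of a type and less RNA per cell cannot be told apart.

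The promoters of G0s2, Pnpla2, Mgll and Abhd5 are shown because these 4 genes, an inhibitor, its target lipase, a later lipase and the lipase's activator, had the highest FPKM among the members called higher at P21 than at P13. The RefSeq promoter table held 8 of the 9 members, without Ces1d. Each line gives the 250 bases before the RefSeq transcription start (for Mgll the first of its listed starts), 5′ to 3′ on the gene's strand, in build GRCm38.p6: G0s2 at chr1:193273189-193273438 on the minus strand, Pnpla2 at chr7:141454938-141455187, Mgll at chr6:88724162-88724411 and Abhd5 at chr9:122351366-122351615, these 3 on the plus strand. Capitals mark matches, on either strand, to GGGCGG (the GC box) and to ACGTG (the hypoxia response element core); overlapping matches are merged.
G0s2: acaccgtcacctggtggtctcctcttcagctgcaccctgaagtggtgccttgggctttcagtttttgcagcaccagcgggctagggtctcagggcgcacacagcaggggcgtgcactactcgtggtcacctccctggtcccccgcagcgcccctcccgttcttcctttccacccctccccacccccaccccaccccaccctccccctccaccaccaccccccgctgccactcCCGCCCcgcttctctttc
Pnpla2: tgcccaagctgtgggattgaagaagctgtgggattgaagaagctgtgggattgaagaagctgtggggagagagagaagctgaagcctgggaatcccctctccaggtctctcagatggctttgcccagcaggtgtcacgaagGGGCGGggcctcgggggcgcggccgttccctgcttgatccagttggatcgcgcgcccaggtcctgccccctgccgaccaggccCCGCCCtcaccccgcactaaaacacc
Mgll: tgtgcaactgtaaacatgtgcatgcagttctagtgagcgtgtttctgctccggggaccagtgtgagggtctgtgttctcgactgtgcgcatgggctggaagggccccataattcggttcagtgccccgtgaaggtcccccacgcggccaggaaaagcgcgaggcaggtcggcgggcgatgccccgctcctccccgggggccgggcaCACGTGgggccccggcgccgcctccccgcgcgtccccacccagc
Abhd5: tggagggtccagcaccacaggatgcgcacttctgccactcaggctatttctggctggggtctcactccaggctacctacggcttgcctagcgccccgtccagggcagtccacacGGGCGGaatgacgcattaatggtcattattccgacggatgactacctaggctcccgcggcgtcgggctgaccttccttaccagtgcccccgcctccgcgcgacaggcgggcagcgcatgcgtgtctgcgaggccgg
The GC box occurred 1 time before G0s2, starting at base -18 from the start, 2 times before Pnpla2, at -109 and -26, and 1 time before Abhd5, at -136. The Mgll window had no GC box but 2 overlapping matches to ACGTG, at -44 and -43, which together read CACGTG. None of these 4 windows held the TATA box (letters TATAAA), the CCAAT box or direct repeat 1, which is AGGTCA repeated after 1 base. Of 32851 RefSeq promoter windows of the same length, 32.7% held the GC box, 16.6% the hypoxia response element core, 33.9% the CCAAT box, 12.4% the TATA box and 0.033% direct repeat 1. A match or its absence describes only these letters in these windows.

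G0s2 was the abundant member in lipochondrocytes. Its product binds ATGL and stops it from working. The gene (ENSMUSG00000009633.3) lies at chr1:193272161-193273217 of GRCm38 on the minus strand. G0s2 measured 233, 257 and 173 FPKM in the P8 libraries, 132, 124 and 178 FPKM at P10, and 883, 805.5 and 988 FPKM at P13. It measured 3923, 4641 and 4603 FPKM at P21, 2464, 2985 and 3368 FPKM at P33, and 638, 603 and 643 FPKM in adipocytes. Every P13, P21 and P33 library was above every adipocyte library, and every P8 and P10 library was below them. By its mean, G0s2 ranked 436 of 13815 tested genes at P8, 180 at P13, 39 at P21 and 63 at P33, against 122 in adipocytes.

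Differences were tested with limma on log2(FPKM + 1), with p adjusted by the Benjamini-Hochberg method over all 13815 tested genes and a gene called at an adjusted p below 0.05; this scale understates the change of genes near or below 1 FPKM. On that scale G0s2 at P33 was 2.21 ± 0.17 (SE) above adipocytes (adjusted p = 1.53e-08 by limma), a 4.68-fold difference of the mean FPKM. At P21 it was 2.80 ± 0.17 above them (adjusted p = 9.20e-10 by limma), or 6.99-fold. G0s2 was the only member higher in lipochondrocytes at P13, P21 and P33. At P13 the difference was small, 0.50 ± 0.17 (adjusted p = 0.0159 by limma), and it was no longer called with mitochondrial genes removed (0.17, adjusted p = 0.371 by limma) or without the third P13 library (0.42, adjusted p = 0.0643 by limma). At P8 and P10 G0s2 was lower than in adipocytes, with log2 differences of -1.52 (adjusted p = 9.95e-07 by limma) and -2.13 (1.73e-08).

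Between stages, G0s2 was called in all pairs of neighbouring stages and between P13 and P8. It was 2.02 ± 0.17 higher at P13 than at P8 (adjusted p = 6.21e-06 by limma), and it was the only member called there, where 4.21% of all tested genes were called and 2.69% called higher. It was 2.30 ± 0.17 higher at P21 than at P13 (adjusted p = 1.03e-07 by limma), or 4.92-fold in mean FPKM. Between P33 and P21 the difference was -0.59 ± 0.17 (adjusted p = 0.042 by limma), with every P33 library below every P21 library. The call between P33 and P21 was lost without the first or the second P33 library (adjusted p = 0.152 and 0.073 by limma), without the second or the third P21 library (0.129 and 0.109) and with median-of-ratios scaling (0.101). That call was also lost with 0.1 added to FPKM in place of 1 (adjusted p = 0.0501 by limma) and with no filter on low values (0.0699).

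**Figure D1:**
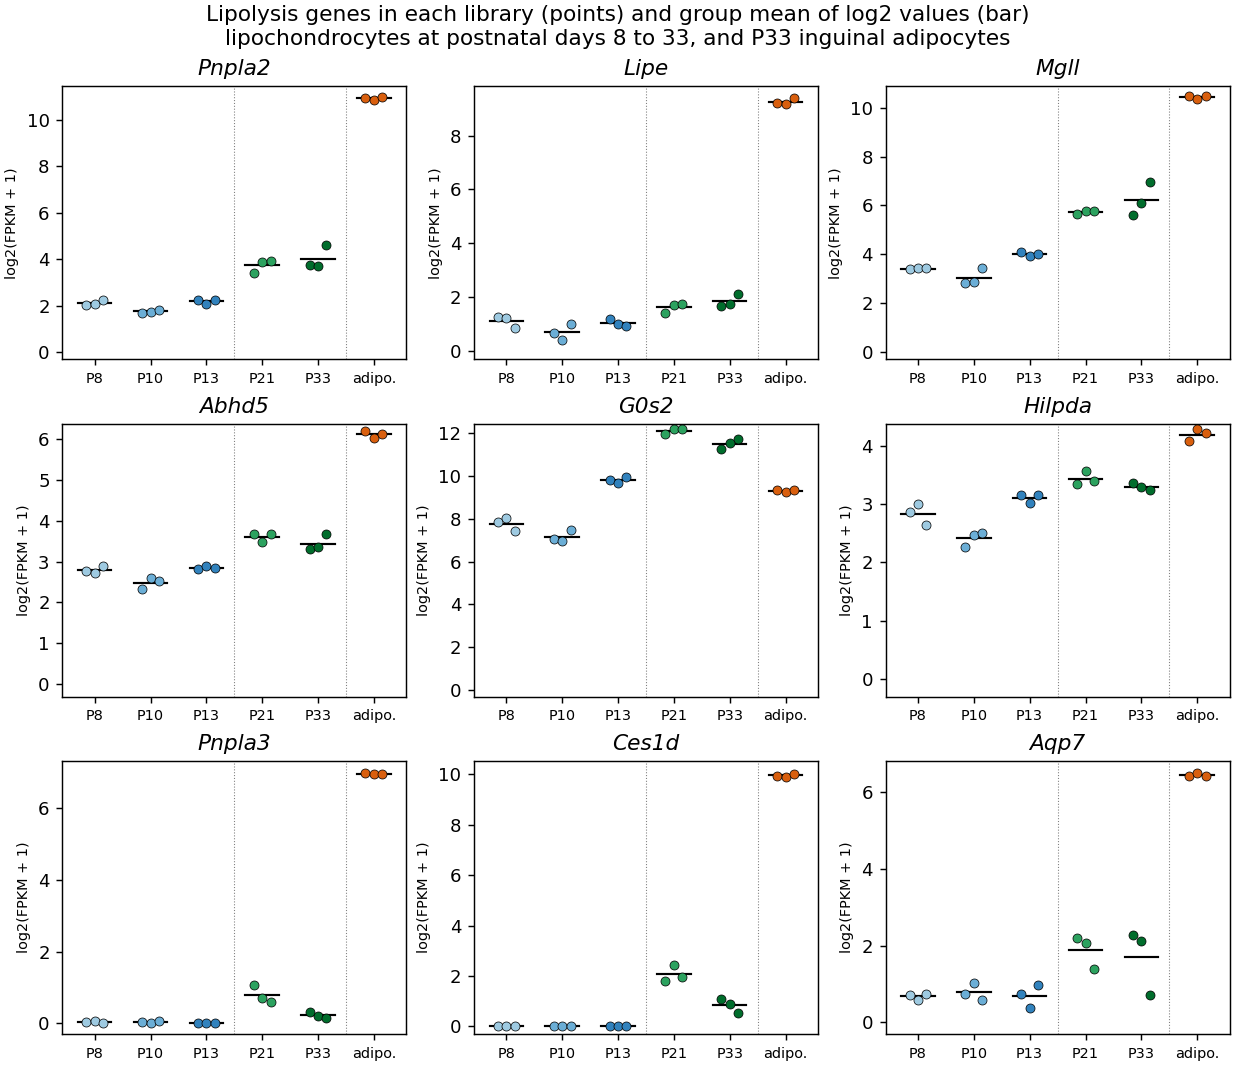
Level of each of the 9 genes in every library as log2(FPKM + 1), with P8, P10, P13, P21 and P33 lipochondrocytes and then adipocytes from left to right; bars are group means of the log2 values, and dotted lines separate sorted cells, floating lipochondrocytes and adipocytes. G0s2 is the panel in which the P21 libraries (3923 to 4641 FPKM) and P33 libraries lie above the adipocyte libraries (603 to 643 FPKM); in the other 8 panels the adipocytes lie on top.

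Hilpda encodes a hypoxia-inducible inhibitor of ATGL, known from several tissues. The gene (ENSMUSG00000043421.8) lies at chr6:29272488-29275446 on the plus strand. Hilpda measured 6.30, 7.04 and 5.21 FPKM at P8, 3.82, 4.55 and 4.64 FPKM at P10, 7.85, 7.09 and 7.85 FPKM at P13, 9.10, 10.8 and 9.53 FPKM at P21, and 9.28, 8.84 and 8.41 FPKM at P33. The adipocyte libraries measured 15.8, 18.4 and 17.5 FPKM, above every lipochondrocyte library. Among the 8 members lower in P33 lipochondrocytes than in adipocytes, Hilpda had the smallest difference, -0.89 ± 0.11 (adjusted p = 3.15e-06 by limma). Its mean FPKM at P33 was 51.3% of the adipocyte mean, and at P21 56.9%. The members other than G0s2 and Hilpda ranged from 0.0811% to 14.6% of the adipocyte mean at P33.

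Pnpla2 encodes ATGL, the lipase that both inhibitors bind. The gene (ENSMUSG00000025509.15) lies at chr7:141455198-141460743 on the plus strand. Pnpla2 measured 3.11, 3.17 and 3.70 FPKM at P8, 2.28, 2.36 and 2.52 FPKM at P10, and 3.76, 3.18 and 3.77 FPKM at P13. It measured 9.65, 13.9 and 14.3 FPKM at P21, 12.6, 12.3 and 23.3 FPKM at P33, and 1948, 1880.3 and 2025 FPKM in adipocytes. No P21 or P33 library overlapped an earlier stage, and the third P33 library was the highest lipochondrocyte library. The log2 difference was -6.90 ± 0.19 between P33 and adipocytes (adjusted p = 7.07e-14 by limma), so that the adipocyte mean was 122-fold the P33 mean. Pnpla2 ranked 2749 of the 13815 tested genes at P33 and 59 in adipocytes. It was 1.56 ± 0.19 higher at P21 than at P13 (adjusted p = 1.68e-05 by limma), and P33 and P21 did not differ beyond their spread (0.28 ± 0.19, adjusted p = 0.424 by limma; -0.0021 without the third P33 library).

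Lipe encodes HSL, the main target of protein kinase A among the lipases. The gene (ENSMUSG00000003123.15) lies at chr7:25379527-25398710 on the minus strand. Lipe measured 0.34 to 1.44 FPKM over the 9 sorted libraries, 1.70, 2.29 and 2.4 FPKM at P21, 2.22, 2.36 and 3.41 FPKM at P33, and 596, 578 and 666 FPKM in adipocytes. The log2 difference was -7.40 ± 0.17 at P33 (adjusted p = 7.29e-15 by limma), and the adipocyte mean was 230.3-fold the P33 mean. Lipe was 0.59 ± 0.17 higher at P21 than at P13 (adjusted p = 0.0122 by limma), a call lost with median-of-ratios scaling (0.31, adjusted p = 0.231 by limma). Its exons overlap those of the antisense gene 4732471J01Rik, and no source used here states whether counting used strand, so reads of the pair may be mixed. The same holds for Mgll with Gm26588 and for Abhd5 with A730085K08Rik. The exons of Pnpla3 overlap those of Gm49513 on the same strand, where even stranded counting could mix reads.

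Mgll encodes monoglyceride lipase, which also breaks down the endocannabinoid 2-arachidonoylglycerol in brain. The gene (ENSMUSG00000033174.17) lies at chr6:88724412-88828360 on the plus strand. Mgll measured 9.52, 9.68 and 9.74 FPKM at P8, 6.12, 6.23 and 9.86 FPKM at P10, and 16.1, 14.3 and 15.3 FPKM at P13. It measured 49.3, 54.1 and 53.2 FPKM at P21, 47.5, 66.8 and 123 FPKM at P33, and 1438, 1319 and 1414 FPKM in adipocytes. Of the 5 hydrolase genes followed here it had the highest mean FPKM in lipochondrocytes at every stage, and its P21 and P33 libraries were all above its earlier ones. The log2 difference was -4.23 ± 0.24 between P33 and adipocytes (adjusted p = 4.96e-10 by limma), and 1.72 ± 0.24 between P21 and P13 (adjusted p = 6.59e-05 by limma). The P33 libraries spread widely: P33 against P21 gave 0.48 ± 0.24 (adjusted p = 0.259 by limma), which was called without the first P33 library (0.79, adjusted p = 0.0376 by limma) and was 0.11 without the third.

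Abhd5 encodes CGI-58, the activator of ATGL. The gene (ENSMUSG00000032540.15) lies at chr9:122351608-122381524 on the plus strand. Abhd5 measured 5.84, 5.56 and 6.46 FPKM at P8, 4.02, 5.10 and 4.73 FPKM at P10, 6.00, 6.37 and 6.20 FPKM at P13, 11.7, 10.1 and 11.7 FPKM at P21, and 8.89, 9.15 and 11.7 FPKM at P33. The adipocyte libraries measured 71.3, 63.7 and 68.3 FPKM. Outside the inhibitors, Abhd5 was the member nearest to its adipocyte level, at 14.6% of the adipocyte mean at P33 and 16.5% at P21. The log2 differences were -2.67 ± 0.11 between P33 and adipocytes (adjusted p = 8.27e-12 by limma) and 0.76 ± 0.11 between P21 and P13 (adjusted p = 7.84e-05 by limma).

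Ces1d encodes a carboxylesterase with triacylglycerol hydrolase activity, known from liver and adipose tissue. The gene (ENSMUSG00000056973.6) lies at chr8:93166068-93197838 on the minus strand. Ces1d was listed at 0 in all 9 sorted libraries, measured 2.45, 4.46 and 2.84 FPKM at P21 and 1.14, 0.85 and 0.43 FPKM at P33, and reached 987, 956 and 1041 FPKM in adipocytes. The P33 libraries were all below the P21 libraries, with a log2 difference of -1.23 ± 0.15 (adjusted p = 1.31e-04 by limma). Against adipocytes the difference was -9.13 ± 0.15 at P33 (adjusted p = 2.72e-16 by limma). Ces1f, a close copy in the same gene cluster, followed the same order, with 0.173 ± 0.219 FPKM at P33 and 158 ± 2.68 FPKM in adipocytes (SD, n = 3 each), so reads may have been split between them.

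Pnpla3 encodes a relative of ATGL, also called adiponutrin, known from adipose tissue and liver. The gene (ENSMUSG00000041653.4) lies at chr15:84167837-84187236 on the plus strand. Pnpla3 measured 0.04 FPKM or less in the 9 sorted libraries, 1.10, 0.62 and 0.51 FPKM at P21, 0.25, 0.15 and 0.10 FPKM at P33, and 125, 122 and 124 FPKM in adipocytes. Only 1 lipochondrocyte library reached 1 FPKM, so the gene passed the filter on low values through the adipocytes and had to differ from them. P33 lay below P21 by a log2 difference of -0.57 ± 0.11 (adjusted p = 0.0031 by limma), without overlap.

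Aqp7 encodes an aquaglyceroporin through which glycerol leaves adipocytes. The gene (ENSMUSG00000028427.13) lies at chr4:41033074-41048139 on the minus strand. Aqp7 measured 0.30 to 1.03 FPKM in the 9 sorted libraries, 3.57, 3.20 and 1.63 FPKM at P21, 3.88, 3.38 and 0.64 FPKM at P33, and 83.8, 89.3 and 84.1 FPKM in adipocytes. The third P33 library lay within the range of the sorted libraries, while the other P33 libraries were at or near the highest P21 values. The log2 differences were -4.73 ± 0.32 between P33 and adipocytes (adjusted p = 3.80e-09 by limma) and 1.19 ± 0.32 between P21 and P13 (adjusted p = 0.00871 by limma). P33 against P21 gave -0.18 ± 0.32 (adjusted p = 0.82 by limma), and 0.32 without the third P33 library.

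Against adipocytes, 9 of 9 members were called at P33, 1 higher and 8 lower, beside 68.5% of all tested genes (24.0% higher, 44.5% lower). The same member counts stood at P21, beside 67.5% of all tested genes (24.5% higher, 43.1% lower), and at P13, beside 71.8% (17.8% higher, 54.0% lower). At P10 all 9 members were lower, beside 75.7% of all tested genes called and 58.9% lower, and at P8 likewise, beside 71.5% called and 52.2% lower. Pnpla3 passed the filter only through the adipocytes and gives no support to the count; without it 8 of 8 were called at each stage, 1 of them higher at P33, P21 and P13 and 0 at P10 and P8. The median log2 difference of the 9 members was -4.73 at P33 and -4.71 at P21 (-4.48 and -4.63 without Pnpla3), against -0.28 and -0.25 for all tested genes. Median-of-ratios scaling moved the all-gene medians to 0.0 and the higher share of all calls at P33 to 47.4%, against 35.0% as deposited, and removing mitochondrial genes gave 26.1% with an all-gene median of -0.55. In all 3 scalings each member kept its direction against adipocytes at each of the 5 stages, with every call kept but that of G0s2 at P13 given above.

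**Figure D2:**
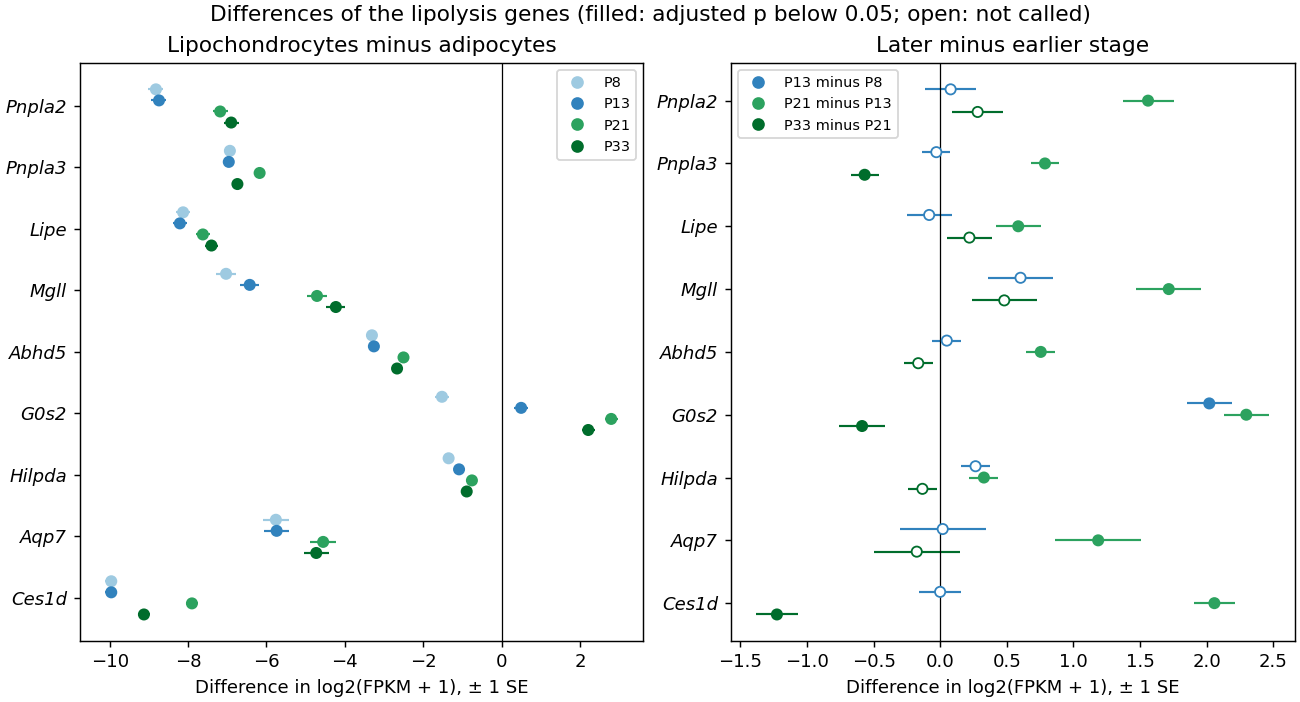
Differences in log2(FPKM + 1) with bars of 1 SE: on the left, P8, P13, P21 and P33 lipochondrocytes minus adipocytes; on the right, the later minus the earlier stage for 3 pairs. Filled points were called by limma at an adjusted p below 0.05. G0s2 crosses the zero line on the left, with -1.52 at P8 and 2.21 at P33, and all 9 points of P21 minus P13 are filled and above 0 on the right.

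Between P21 and P13, 9 of 9 members were called higher, beside 43.1% of all tested genes called and 36.0% called higher. The median log2 difference was 1.19 for the members and 0.29 for all tested genes. Without Pnpla3, which passed the filter only through the adipocytes, 8 of 8 members were called higher (median 1.37). With median-of-ratios scaling the all-gene median became 0.0, and 48.7% of all calls were higher, against 83.7% as deposited. That scaling called 2138 genes higher and 2252 lower, against 4977 and 972 as deposited, and 7 of the 9 members were called. Lipe lost its call there, and Hilpda turned to -0.08 (adjusted p = 0.7 by limma), against 0.33 ± 0.11 as deposited (adjusted p = 0.0245 by limma). Hilpda also lost its call without the second P21 library (0.26, adjusted p = 0.104 by limma) or the second P13 library (0.29, adjusted p = 0.0843). Of the markers of other cells, 7 of 9 for adipocytes, 7 of 9 for macrophages and 7 of 7 tested for skeletal muscle were called higher at P21 too. For fibroblasts and perichondrium 5 of 9 were called higher and 1 lower, with sums of 6733 to 12752 FPKM at P21 and 2456 to 3238 FPKM at P13. Of 10 cartilage markers 5 were called lower and 1 higher. The part of all these cells in the differences was not tested. The 8 sebocyte markers summed to between 616 and 829.6 FPKM at P21, against 66.4 to 80.2 FPKM at P13, of which Plin2, a coat protein of lipid droplets in most cells, made 699 ± 112 FPKM at P21 and 62.6 ± 6.66 FPKM at P13. Of the 5 sebocyte markers tested, 2 were called higher at P21 than at P13, Plin2 and Mgst1. Mgst1 averaged 21.9 ± 4.90 FPKM at P21 and 5.41 ± 0.956 FPKM at P13. Soat1 averaged 5.77 ± 1.63 FPKM at P21 and 3.96 ± 1.14 FPKM at P13, and was not called. The sebocyte genes Krt79, Awat1, Awat2 and Elovl3 were at or below 0.19 FPKM in all 15 lipochondrocyte libraries. The part of sebocytes in the differences was not tested. For each of the 9 members every P21 library was above every P13 library. The share of all tested genes that did so was not counted, so this is not read as particular to the members. G0s2, Pnpla2, Mgll, Abhd5, Aqp7, Ces1d and Pnpla3 kept their calls in the 3 scalings. Under median-of-ratios their log2 differences lay between 0.35 for Abhd5 and 1.89 for Ces1d.

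Between the sorted stages fewer members were called. For P13 over P8, Mgll gave 0.60 ± 0.24 (adjusted p = 0.231 by limma) and was called only with those 2 groups in the fit (adjusted p = 0.022 by limma), with every P13 library above every P8 library. 2 of the 9 were called lower at P10 than at P8, beside 11.0% of all tested genes called and 9.14% called lower: G0s2 by -0.61 ± 0.17 (adjusted p = 0.0355 by limma) and Hilpda by -0.42 ± 0.11 (adjusted p = 0.0259 by limma). The P10 and P8 libraries overlapped for G0s2 and not for Hilpda. The 9 fibroblast and perichondrium markers summed to 3895 to 5341 FPKM at P8, 7297 to 9474 FPKM at P10 and 2456 to 3238 FPKM at P13, with 4 called higher at P10 than at P8 and 8 called lower at P13 than at P10, and their part in the results between these stages was not tested. Of all calls 17.2% were higher, against 80.0% with median-of-ratios scaling. Neither member stayed called with median-of-ratios scaling (adjusted p = 0.526 and 0.628 by limma), nor without the first or the second library of P10 or of P8, with adjusted p by limma of 0.0807 to 0.135 for G0s2 and of 0.0505 to 0.118 for Hilpda. Lipe was called without the third P10 library (-0.59, adjusted p = 0.0477 by limma). 4 of the 9 were called higher at P13 than at P10, beside 22.6% of all tested genes called and 18.6% called higher: G0s2 by 2.63 ± 0.17 (adjusted p = 1.27e-07 by limma), Mgll by 0.97 ± 0.24 (0.0106), Hilpda by 0.69 ± 0.11 (4.56e-04) and Abhd5 by 0.36 ± 0.11 (0.0287). Of all calls 82.2% were higher, against 48.3% with median-of-ratios scaling, which called 1132 genes higher and 1212 lower. Of the 4 members, Mgll and Abhd5 were not called with median-of-ratios scaling (adjusted p = 0.0536 and 0.457 by limma) or without the first P10 library (0.0522 and 0.135). Abhd5 was also lost without the third P10 library (0.0515) and without the second or the third P13 library (0.0885 and 0.0729).

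At P33, 3 of the 9 were called lower than at P21, beside 10.0% of all tested genes called and 7.17% called lower: G0s2, Pnpla3 and Ces1d, with the values given above. Without Pnpla3, which passed the filter only through the adipocytes, 2 of 8 were called lower. With only P33 and P21 in the fit none of the 3 was called (adjusted p by limma of 0.267 for G0s2, 0.139 for Pnpla3 and 0.0991 for Ces1d). The adipocyte marker sum was lower too, at 8.68 to 11.3 FPKM at P33 against 21.2 to 28.1 FPKM at P21. By its mean Fabp4 was the largest part, with 4.73 ± 0.93 FPKM at P33 and 16.4 ± 2.86 FPKM at P21. Of the 9 adipocyte markers 4 were called lower and 0 higher, and Adipoq, Plin1 and Car3 were not called. The sebocyte marker sum was 260.3 to 353 FPKM at P33 against 616 to 829.6 FPKM at P21, where Plin2 was the 1 marker called lower. 5 of 9 macrophage markers were called higher at P33, and 1 of 9 fibroblast and perichondrium markers higher and 4 lower. Of 10 cartilage markers 5 were called lower and 0 higher, with sums of 22492 to 26263 FPKM at P33 and 27830 to 31127 FPKM at P21. The part of these cells in the result was not tested. Pnpla2, Lipe and Mgll had higher means at P33, and Abhd5, Hilpda and Aqp7 lower ones, none beyond the spread between libraries.

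The order of the 6 groups differed between members. For G0s2 the order, P21, P33, P13, adipocytes, P8 and P10 from the top, had neighbours that were all called, although the P8 and P10 libraries overlapped and the calls between P33 and P21, P13 and adipocytes, and P10 and P8 were lost under the alternatives given above. For Pnpla2, Lipe and Mgll it ran from adipocytes to P33 and P21 and then to the sorted stages, with P33 and P21 not told apart. For Abhd5, Hilpda, Aqp7, Pnpla3 and Ces1d it ran from adipocytes to P21 and P33, with P21 above P33 called only for Pnpla3 and Ces1d. For Hilpda P33 was not called above P13, the next group (0.20 ± 0.11, adjusted p = 0.155 by limma). Nor was P33 called above P8, the next group, for Pnpla3 (0.19 ± 0.11, adjusted p = 0.149 by limma).

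Set beside each other within a library, the inhibitor and its lipase stood in opposite proportion in the cell types. The ratio of G0s2 to Pnpla2 FPKM averaged 67.7 ± 18.3 at P8, 60.3 ± 9.34 at P10, 250.01 ± 13.9 at P13, 354 ± 46.2 at P21 and 195 ± 49.3 at P33, against 0.322 ± 0.00503 in adipocytes (SD, n = 3 each). Every lipochondrocyte library had more G0s2 than Pnpla2, the lowest at 46.8, and every adipocyte library less, the highest at 0.328. The ratio of Hilpda to Pnpla2 was 1.88 ± 0.424 at P8, 1.81 ± 0.128 at P10, 2.13 ± 0.0835 at P13, 0.794 ± 0.14 at P21 and 0.606 ± 0.212 at P33, against 0.00885 ± 0.000842 in adipocytes. The activator followed a like order: Abhd5 to Pnpla2 was 1.79 ± 0.0739 at P8, 1.93 ± 0.205 at P10, 1.75 ± 0.222 at P13, 0.917 ± 0.259 at P21 and 0.651 ± 0.131 at P33, against 0.0347 ± 0.00161 in adipocytes. The inhibitor exceeded the activator throughout, with G0s2 to Abhd5 at 37.7 ± 9.92 at P8, 144 ± 16.6 at P13, 396 ± 62.5 at P21 and 298 ± 25.6 at P33, against 9.28 ± 0.286 in adipocytes. These are ratios of transcripts, given as a description without a test, and they do not change with a library's scaling. Their size rests on the transcript lengths used for FPKM, which are not known here.

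**Figure D3:**
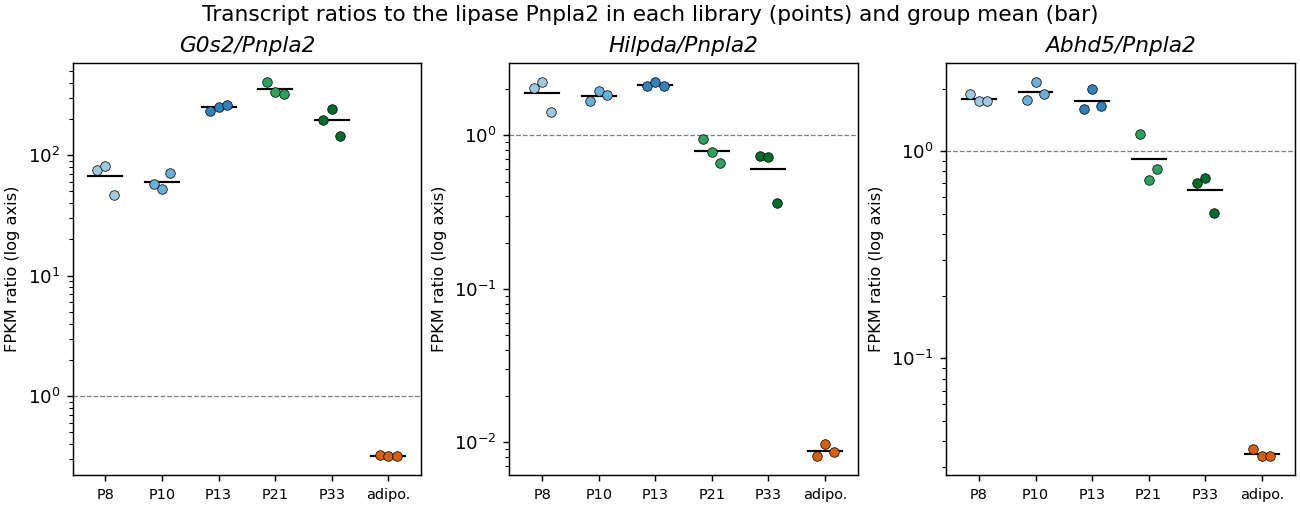
Ratio of FPKM within each library (log axes): G0s2, Hilpda and Abhd5 each divided by Pnpla2, for P8 to P33 lipochondrocytes and then adipocytes, with bars at group means and a dashed line at equal FPKM. All 15 lipochondrocyte libraries lie above the line for G0s2 (46.8 to 407) and the 3 adipocyte libraries below it (0.318 to 0.328).

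The lipases also differed in proportion among themselves. Mgll exceeded Pnpla2 in every lipochondrocyte library, at 4.84 ± 0.933 at P33 and 4.24 ± 0.763 at P21, against 0.713 ± 0.0222 in adipocytes (SD, n = 3 each). Mgll to Lipe was 28.6 ± 7.39 at P33 and 24.9 ± 3.61 at P21, against 2.27 ± 0.143 in adipocytes. Lipe to Pnpla2 was nearer between the cell types, at 0.172 ± 0.0232 at P33 and 0.169 ± 0.00607 at P21, against 0.314 ± 0.0126 in adipocytes. The sorted stages lay around the adipocyte ratio, at 0.373 ± 0.13 at P8, 0.269 ± 0.133 at P10 and 0.304 ± 0.053 at P13. So Mgll, which acts last in the chain, was the least reduced of the 3 neutral lipases relative to adipocytes, at 5.70% of the adipocyte mean at P33, against 0.822% for Pnpla2 and 0.434% for Lipe.

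The members' levels were set beside those of adipocyte markers in the same libraries. As a percentage of the adipocyte mean, Adipoq was at 0.00706% at P33 and 0.00732% at P21, Cfd at 0.00148% and 0.00354%, and Fabp4 at 0.0141% and 0.049%. Plin1 was the highest of the 9 markers, at 0.125% at P33 and 0.154% at P21, and Lep and Adrb3 were at 0 in all 6 libraries. At P33, G0s2 (468%), Hilpda (51.3%), Abhd5 (14.6%), Mgll (5.70%), Aqp7 (3.07%), Pnpla2 (0.822%) and Lipe (0.434%) were above all 9 markers. Pnpla3 (0.135% at P33) was close to Plin1, and Ces1d (0.0811%) was below it and above the other 8 markers. At P21, Pnpla3 (0.602%) and Ces1d (0.327%) were above all 9 markers.

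**Figure D4:**
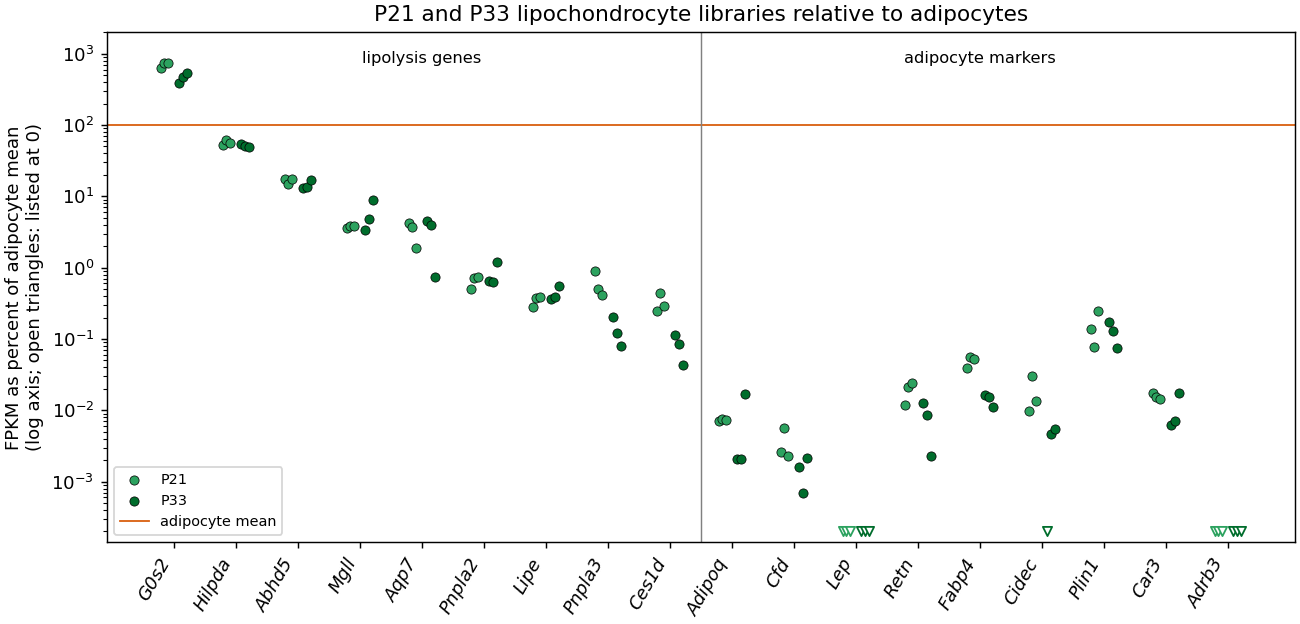
FPKM of each P21 and P33 lipochondrocyte library as a percentage of the adipocyte mean (log axis; the line marks the adipocyte mean), for the 9 lipolysis genes on the left and 9 adipocyte markers on the right; open triangles are libraries listed at 0. The genes run between G0s2, at 699% at P21 and 468% at P33, and Ces1d, at 0.327% and 0.0811%, while the markers lie at or below 0.245%.

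8 further lists, with 86 genes that act beside the members, were counted in the same fit by limma, where the median log2 difference of all tested genes was -0.28 between P33 and adipocytes, 0.29 between P21 and P13 and -0.019 between P33 and P21. Of all tested genes 44.5% were called lower at P33 than in adipocytes and 24.0% higher, 36.0% higher at P21 than at P13, and 7.17% lower at P33 than at P21. Median-of-ratios scaling called 2138 genes higher and 2252 lower at P21 than at P13, against 4977 higher as deposited. The 36.0% is thus not the share beside the scaled counts. Against adipocytes at P33 that scaling called 4138 genes higher and 4598 lower, and removing mitochondrial genes 2676 and 7576. A gene that passed the filter only through its level in adipocytes, such as Ces1f, gives no support to a count of genes lower than in them, and such genes are named for each list. Of 13 other intracellular lipid hydrolases 10 were tested, and 9 were lower and 0 higher at P33 than in adipocytes, with a median log2 difference of -1.10; all 10 passed on lipochondrocyte libraries. Pla2g16, an adipose phospholipase, averaged 1.92 ± 0.529 FPKM at P33 and 209 ± 7.11 FPKM in adipocytes (SD, n = 3 each), and Abhd6, a monoacylglycerol hydrolase, 3.79 ± 0.529 FPKM at P33 and 23.0 ± 1.47 FPKM in adipocytes. At P21, 8 of the 10 were higher than at P13 (median 0.64), and 4 of the 10 with median-of-ratios scaling. Among them Abhd12, which hydrolyses lysophospholipids and monoacylglycerol, averaged 37.2 ± 3.14 FPKM at P21 and 16.9 ± 0.0723 FPKM at P13. Of the 5 other patatin family genes 3 were tested; Pnpla8, a phospholipase, averaged 7.75 ± 1.04 FPKM at P33 and 48.5 ± 0.972 FPKM in adipocytes. Of the secreted lipases only Lpl, which frees fatty acids from circulating lipoproteins, was tested, and it averaged 3.58 ± 1.05 FPKM at P33 and 5123 ± 167 FPKM in adipocytes.

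The receptors and kinases that control lipolysis were mostly lower too. Of 22 listed genes 21 were tested, and at P33 4 were higher and 15 lower than in adipocytes (median -1.05). Adcy6, Adrb3, Hcar2 and Ptger3 passed only through the adipocytes; without them 4 of 17 were higher and 11 lower (median -0.88). Adra2a, Gnas and Prkg1, named after their values were seen, were among the higher ones, and Gnas, which encodes the stimulatory G protein alpha subunit, averaged 1003 ± 119.7 FPKM at P33 and 670.5 ± 11.1 FPKM in adipocytes. With mitochondrial genes removed 2 of the 21 were higher and 16 lower, with Gnas not called, and with median-of-ratios scaling 6 were higher and 13 lower. Adrb3, the adrenergic receptor that drives lipolysis in rodent fat, was listed at 0 in all P33 libraries and averaged 192 ± 4.81 FPKM in adipocytes. Ptger3, a prostaglandin receptor that restrains lipolysis, averaged 0.393 ± 0.133 FPKM at P33 and 113 ± 3.36 FPKM in adipocytes, and Prkar2b, a regulatory subunit of protein kinase A, 1.13 ± 0.387 FPKM at P33 and 150.1 ± 3.18 FPKM in adipocytes. At P21, 9 of the 21 were higher than at P13 and 1, Prkar2b, lower (median 0.36), a share near that of all tested genes. Without the 4 that passed only through the adipocytes, 8 of 17 were higher and 1 lower (median 0.58). With median-of-ratios scaling 6 of the 21 were higher and 3 lower. Adra2a, an adrenergic receptor that restrains lipolysis in fat, averaged 1.89 ± 0.254 FPKM at P21 and 0.257 ± 0.143 FPKM at P13. Adora1, an adenosine receptor that restrains it too, averaged 1.51 ± 0.0961 FPKM at P21 and 0.127 ± 0.0723 FPKM at P13.

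On the droplet coat, where ATGL and its partners meet their substrate, 1 of 8 genes was higher and 6 lower at P33 than in adipocytes (median -2.99). Cidec, Plin1 and Plin5 passed only through the adipocytes, and without them 1 of 5 was higher and 3 lower (median -0.41). The higher one, named after its value was seen, was Cideb, with 1.11 ± 0.281 FPKM at P33 and 0.233 ± 0.0513 FPKM in adipocytes. Plin1, which holds CGI-58 on adipocyte droplets, averaged 0.55 ± 0.211 FPKM at P33 and 440.3 ± 13.1 FPKM in adipocytes. At P21, 7 of the 8 were higher than at P13 (median 0.67), against 4 of 7 tested with median-of-ratios scaling. Without Cidec, Plin1 and Plin5, 5 of 5 were higher (median 1.61). They included Plin2, a coat protein of most cells, with 699 ± 112 FPKM at P21 and 62.6 ± 6.66 FPKM at P13, and Cidea, a droplet fusion protein, with 122 ± 25.1 FPKM at P21 and 18.1 ± 1.84 FPKM at P13. Of 12 genes that handle the released fatty acid and glycerol 10 were tested. Of the 10, 9 were higher at P21 than at P13 (median 1.30), 7 with median-of-ratios scaling, and 7 were lower at P33 than at P21. At P33, 9 of the 10 were lower than in adipocytes, and 1, Acsl3, was higher, a call lost with mitochondrial genes removed. Without Gk, which passed only through the adipocytes, 8 of 9 were lower. Also without Gk, 9 of 9 were higher at P21 than at P13 (median 1.685) and 7 of 9 lower at P33 than at P21. Dgat2, which rebuilds triacylglycerol, averaged 476 ± 54.2 FPKM at P13, 4466 ± 664 FPKM at P21 and 1192 ± 390 FPKM at P33. Of 11 transcription factors known to act on lipolysis genes 10 were tested, and 9 were lower at P33 than in adipocytes (median -2.40). Irf4, Mlxipl and Ppara passed only through the adipocytes, and without them 6 of 7 were lower (median -1.40). Srebf1, which drives fatty acid synthesis genes and was named after its value was seen, was higher, with 101 ± 27.9 FPKM at P33 and 68.7 ± 2.32 FPKM in adipocytes, a call lost with mitochondrial genes removed. Pparg, a driver of adipocyte genes including Pnpla2 and G0s2, averaged 8.34 ± 2.51 FPKM at P33 and 97.9 ± 3.05 FPKM in adipocytes.

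The genes whose log2(FPKM + 1) over the 15 lipochondrocyte libraries was most like that of a member were named among 4557 genes with a mean of at least 10 FPKM at some stage. Pearson's r is given as a description. The libraries share their stage and isolation, so r is also given within the 9 sorted and within the 6 floating libraries. Each of these sets still mixes stages, and the genes were picked on the same libraries, so high values within a set are no separate support. G0s2 was most like Mien1 (r = 0.989; 0.961 sorted, 0.848 floating), Cox14 (0.989; 0.968 and 0.957) and Cidea (0.988; 0.975 and 0.749). Pnpla2 was most like Crispld2 (0.995; 0.932 and 0.975), Cyp26a1 (0.994; 0.82 and 0.988) and Slc48a1 (0.993; 0.969 and 0.96). Mgll was most like Rogdi (0.992; 0.93 and 0.937), H2-Ke6 (0.988; 0.945 and 0.849) and 1110008P14Rik (0.986; 0.939 and 0.783). Among the genes most like Abhd5 were Fam173a (0.982; 0.923 and 0.791) and Ccndbp1 (0.98; 0.96 and 0.752).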

How the data were processed

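Libraries of total RNA were measured by RNA sequencing, and the authors deposited 1 table of FPKM per gene and library, which is what was used here. The aligner and build named in the submitters' processing notes are STAR 2.4.2a and mm10. How fragments were assigned to genes, with which annotation and with or without strand, is in none of the sources used here. Per the file headers, a second deposited sheet lists the total read count and the percent of reads aligned in each library. Fragments per gene are not known, so no counting interval is given.

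Groups followed the labels. FPKM was turned into log2(FPKM + 1), the 13815 of 46983 genes that reached 1 FPKM in 3 or more libraries were kept, and limma 3.58.1 (R 4.3.3) was fitted to 6 group means with a mean-variance trend and tested two-sided, where calls used a Benjamini-Hochberg adjusted p below 0.05. All 9 members passed the filter, 8 of them on lipochondrocyte libraries alone. The fit was checked on simulated data. No pair of libraries was identical. Gene positions came from a GRCm38 annotation, which held 98.9% of the gene IDs, and promoters from RefSeq. The members, the pathway and marker lists and the tests were chosen with earlier results of these data known. Besides the members, up to 3 called genes per list and comparison were eligible to be named, ranked by the size of the change among genes whose higher group averaged 1 FPKM or more, and the 3 most similar genes per member above 10 FPKM. Some genes that met this rule are not reported here. Other pseudocounts, filters, scalings, fits and left-out libraries were tried.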

Additional observations from a re-analysis of the deposited data

How the results depend on the processing

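Alternatives were a pseudocount of 0.1 or 5, no filter, a filter of 5 FPKM, median-of-ratios scaling, mitochondrial genes removed, a fit to only the 2 groups compared, a replicate block and each library left out. Of 1350 member results under alternatives, 1299 kept direction and call, 37 lost the call, 4 gained it and 10 changed sign. With the 5 FPKM filter, which tests fewer genes, 6189 genes were called at P33, 6150.0 at P21, 6552 at P13, 6837 at P10 and 6547 at P8 against adipocytes. The fit to 2 groups, with fewer libraries, called 2 members and 347 genes for P13 over P8, 0 members and 351 genes for P10 over P8, and 0 members and 126 genes for P33 over P21. At an unadjusted p below 0.05 by limma that fit held 4 members for P10 over P8 and 3 for P33 over P21. For P10 over P8, 974 genes were called with a pseudocount of 5, 985 genes and 1 member without a filter, and 629 genes and 0 members (also 0 unadjusted, by limma) with median-of-ratios scaling, under which 2 members were called for P13 over P10 and Hilpda for P21 over P13 was -0.077. Aqp7 for P13 over P8 was -0.018 with a pseudocount of 0.1. The cause of these changes was not tested.

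With a library left out, 339 to 509 genes were called for P13 over P8 (581 with all libraries), 520.0 to 1493 genes and 0 to 3 members for P10 over P8 (1525 genes, 2 members; 2 to 3 unadjusted where none was called), 1938 to 2830.0 genes and 2 to 4 members for P13 over P10 (3124 genes, 4 members), and 906 to 1802 genes and 2 to 3 members for P33 over P21 (1388 genes, 3 members). Counts moved most without the third P13 library (339) or the first P8 library (381) for P13 over P8. For P10 over P8 they did so without the first or the second P10 library (520.0 and 794) or the second or the third P8 library (640.0 and 914), for P13 over P10 without the first P10 library (1938), and for P33 over P21 without the second P21 library (906). Members called were 8 to 9 for P13 over adipocytes and 8 to 9 for P21 over P13. Aqp7 ranged from -0.12 to 0.18 for P13 over P8, from -0.018 to 0.21 for P10 over P8, from -0.22 to 0.078 for P13 over P10 and from -0.46 to 0.32 for P33 over P21, and Pnpla2 from -0.0021 to 0.43 for P33 over P21.

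Libraries with the same replicate number did not deviate together: the correlation of their deviations ran from -0.168 to 0.206, and in 0 of 10 comparisons was every pair above 0.1, so the numbers were not taken as pairs. The fit with the replicate block changed no member count and called 9571 genes for P33 over adipocytes, 661 for P13 over P8, 6105 for P21 over P13 and 1546 for P33 over P21. Without fragment counts, the precision of values below 1 FPKM is unknown.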
